A study of Mus musculus with 2 samples.

Results

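Cxcl9 and Cxcl10, a pair of chemokines induced by interferon, and Cxcr3, the receptor they share, were followed through the leukocytes of mouse melanomas. They were taken by symbol and are 3 of the 31053 genes in the deposited tables, of which 20982 had at least 1 UMI in the cells used. B16-F10 is a melanoma line derived from C57BL/6 mice. It was grown under the skin of wild-type, immunocompetent C57BL/6 females 10 weeks old. Leukocytes were enriched from the digested tumours on Ficoll, sorted as DAPI-negative, CD45-positive cells and captured with the Chromium 3′ v3 kit. One group is the control and the other was given an OX40 agonist. OX40 (Tnfrsf4) is a costimulatory receptor of activated T cells. Each group is 1 library. What the control mice received, how many mice a library pools and the clone, dose and timing of the agonist are not given in the sources used here. Asked here is which cells carry RNA of the ligands and of the receptor, and at what level in each library.

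CXCL9 and CXCL10 are small secreted proteins that draw in cells bearing CXCR3, a G protein-coupled receptor found mainly on activated T cells, regulatory T cells and NK cells. Interferon-gamma, released by T and NK cells, switches both genes on in macrophages, dendritic cells (DCs) and many tumour cells. Cxcl10 also responds to type I interferon. CXCR3 in T cells depends on the transcription factor T-bet, encoded by Tbx21.

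Both ligand genes lie on chromosome 5 of the mm10 build, on the minus strand and 18558 bases apart. Cxcl9 (ENSMUSG00000029417) spans chr5:92321347-92328079 with 4 exons, and Cxcl10 (ENSMUSG00000034855) spans chr5:92346638-92348889, also with 4 exons. Cxcr3 (ENSMUSG00000050232) spans chrX:101731535-101734269, on the minus strand with 2 exons. The 250 bases before each ligand's start are shown because the RNA of both was lower together in most of the classes below. They come from RefSeq on GRCm38.p6, from chr5:92328080-92328329 for Cxcl9 and chr5:92348890-92349139 for Cxcl10, on the minus strand and written in the direction of the gene. Capitals mark matches to the motifs named after them.
Cxcl9 promoter: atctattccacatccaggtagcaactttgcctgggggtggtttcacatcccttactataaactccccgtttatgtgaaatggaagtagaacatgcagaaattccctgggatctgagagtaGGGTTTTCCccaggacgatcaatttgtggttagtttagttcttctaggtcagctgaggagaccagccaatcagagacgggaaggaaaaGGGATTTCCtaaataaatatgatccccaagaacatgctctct
Cxcl10 promoter: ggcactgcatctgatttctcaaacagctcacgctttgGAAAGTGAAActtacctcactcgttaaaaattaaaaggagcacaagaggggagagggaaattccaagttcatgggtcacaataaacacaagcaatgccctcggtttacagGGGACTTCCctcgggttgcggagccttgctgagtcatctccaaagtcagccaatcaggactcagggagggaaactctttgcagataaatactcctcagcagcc
There were 3 motifs searched on both strands, and no matches overlapped. The core of an interferon-stimulated response element (GAAA, any 2 bases, GAAA) was found once, in Cxcl10, from 213 to 204 bases before the start. GGGNNTTCC, a form of NF-kB site, was found in Cxcl9 from 130 to 122 and from 42 to 34 bases before the start, and in Cxcl10 from 103 to 95. TTCNNNGAA, the gamma-activated site, was in neither window. Of 32851 RefSeq promoters cut to the same length, 2.98% hold the response element core, 4.98% hold GGGNNTTCC and 7.02% hold TTCNNNGAA. The form of the NF-kB motif was chosen with both sequences in view, and a match is a run of letters, not a measured site.

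The control library holds 7187 barcodes and 114026695 UMIs (unique molecular identifiers, 1 per captured RNA molecule), and the OX40 agonist library 8569 barcodes and 118059108 UMIs. After filtering, 5989 and 6986 cells were used, with medians of 9441 and 7758 UMIs. The libraries share 18 barcodes. Cells were assigned to classes by summed marker UMIs, and 4.26% of control and 3.46% of treated cells passed no gate. A level in CPM is what a gene contributes to all UMIs of a class, with no correction for gene length, which 3′ counting does not need. Where 2 values stand side by side, the control library comes first. Both sorts contain cells that go against the CD45 gate. The 477 control and 622 treated cells gated as melanoma carry 15745 and 15177 CPM of Pmel, Mlana, Dct, Tyrp1, Tyr and Slc45a2 in sum. Their Ptprc (CD45) level is 11.4 and 3.57 CPM, against 358 and 340 CPM in mononuclear phagocytes. With 1 library per group there is no replicate spread and no test, so every difference below describes these 2 libraries. Parentheses give 95% counting intervals. They treat UMIs as independent, which understates the error where a handful of cells carry most of them.

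Cxcl9 RNA was highest in mononuclear phagocytes (monocytes and macrophages) and in conventional DCs, and in most of these classes it was lower in the OX40 agonist library. In phagocytes the level was 1067 CPM (1055 to 1078) in the control and 591 CPM (583 to 600) in the treated library, a ratio of 0.554. The 2 intervals lie far apart, and the ratio is among the lowest in the class: 0.364% of the 7134 genes at 10 CPM or more had a lower log2 ratio. At least 1.5-fold lower were 1.86% of those genes, and Cxcl9 and Cxcl10 were both among them. With the subset mix held at that of the control library Cxcl9 was not, at 1067 and 741 CPM. The level in cDC2, the DCs marked by Cd209a and Clec10a, was 1008 CPM (970 to 1046) in the control and 983 CPM (944 to 1023) in the treated library. Here the intervals overlap, and the ratio was 0.975. Cells that passed no gate, 255 and 242 of them, had 897 CPM (853 to 944) and 990 CPM (940.1 to 1043), above cDC1 in both libraries and with a ratio of 1.10 (1.03 to 1.19).

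The cross-presenting cDC1, marked by Xcr1 and Clec9a, had 830 CPM of Cxcl9 (786 to 876) in 71 control cells and 452 CPM (421 to 485) in 117 treated cells. In mature DCs, the Ccr7 and Fscn1 cells that migrate to lymph nodes, it was 309 CPM (286 to 333) and 164 CPM (151 to 178). Both ratios, 0.545 and 0.531, lay near that of the phagocytes. In mature DCs 1 control cell held 24.0% of the Cxcl9 UMIs. Without the 1% of cells with most, the levels were 162 and 72.1 CPM, and with classes from clusters in place of gates 93.0 and 48.7 CPM. Plasmacytoid DCs had no Cxcl9 UMI in 17 control and 44 treated cells, which, taken as a limit of 3 counts, allows up to 19.2 and 10.8 CPM.

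Melanoma cells and most lymphocytes carried little Cxcl9. Levels were 6.05 and 3.67 CPM in melanoma cells, 12.1 and 6.90 CPM in CD8 T cells, and 17.4 and 2.73 CPM in NK cells, where the treated value rests on 3 UMIs. Regulatory T cells had 122 CPM in the control and 7.96 CPM in the treated library, but 1 control cell held 27.4% of the UMIs. Droplets that also passed the phagocyte or melanoma gate were 11.5% and 12.0% of regulatory T cells. Without them the levels were 16.2 and 6.38 CPM, and with classes from clusters 26.6 and 7.08 CPM.

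**Figure D1:**
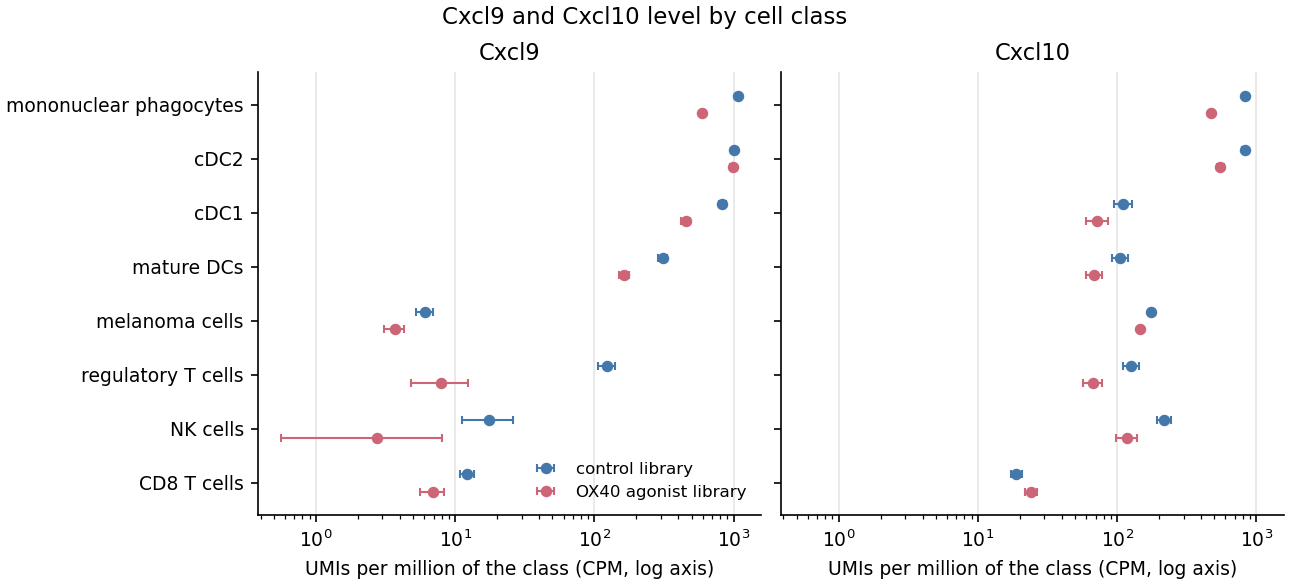
Level of Cxcl9 (left) and Cxcl10 (right) in 8 cell classes, in CPM of the class on a log axis. Points are the 2 libraries and bars are 95% Poisson intervals, counting error only. Cxcl9 is above 100 CPM in both libraries in phagocytes and the DC classes shown, while Cxcl10 also reaches 175 CPM in melanoma cells.

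Cxcl10 RNA shared the phagocytes with Cxcl9, but melanoma cells carried it too and cDC1 much less of it. In phagocytes its level was 834 CPM (824 to 844) in the control and 469 CPM (461 to 476) in the treated library. The ratio was 0.562, and 0.392% of the genes of the class had a lower one. In cDC2 it was 826 CPM (792 to 861) and 551 CPM (522 to 581), a ratio of 0.667 just above the 1.5-fold limit, so neither ligand counted among the 5.83% of cDC2 genes past it. The level in cDC1 was 111 CPM (95.1 to 128) and 71.6 CPM (59.7 to 85.3), and in mature DCs 105 CPM (91.8 to 119) and 68.1 CPM (59.7 to 77.3). Both ligands were at least 1.5-fold lower in these 2 classes, as were 10.9% of genes in cDC1 and 5% in mature DCs. With classes from clusters in place of gates, Cxcl10 was higher in the treated library in both, at 69.9 and 90.1 CPM in cDC1 and 34.6 and 42.4 CPM in mature DCs. Without the top 1% of cells Cxcl10 fell short of the 1.5-fold limit in both, at 71.2 and 48.4 CPM in cDC1 and 50.9 and 42.1 CPM in mature DCs.

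Melanoma cells had 175 CPM of Cxcl10 (171 to 180) in the control and 145 CPM (142 to 149) in the treated library, a ratio of 0.829. It was not among the 2.14% of melanoma genes at least 1.5-fold lower. One treated cell held 807 UMIs, 14.0% of the total, and without the top 1% of cells the levels were 147 and 101 CPM. These cells are deep, with medians of 69744 and 64901 UMIs, and 69.8% and 68.6% had a Cxcl10 UMI. After every cell was thinned to 1000 UMIs the shares were 12.8% (9.83 to 16.3) of 437 and 8.61% (6.50 to 11.1) of 604 cells. The levels were then 222 and 127 CPM, past the 1.5-fold limit. Melanoma cells held 0.0346 and 0.0253 Cxcl9 UMIs per Cxcl10 UMI, against 1.28 and 1.26 in phagocytes. Of the 14 phagocyte markers all had a UMI there. Apoe made up 650 of their 697 CPM in the control and 636 of 675 CPM in the treated library, while C1qb was at 15.5 and 11.7 CPM, against 2998 and 2833 CPM in phagocytes.

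Among lymphocytes, Cxcl10 was at 217 and 118 CPM in NK cells, at 125 and 66.6 CPM in regulatory T cells, and at 18.9 and 24.1 CPM in CD8 T cells. Single NK cells held 37.7% and 49.6% of the NK total. Both ligands were at least 1.5-fold lower in regulatory T cells and in NK cells, as were 6.08% and 8.15% of the genes there. For Cxcl10 in NK cells this did not hold without mixed droplets, at 138 and 115 CPM, or with classes from clusters, at 162 and 116 CPM. In CD8 T cells, where 0.531% of genes were, Cxcl9 was and Cxcl10 was not, and with clusters Cxcl9 was not either, at 12.1 and 8.99 CPM. Regulatory T cells without mixed droplets had 72.7 and 60.9 CPM of Cxcl10, and with classes from clusters the order turned, at 57.5 and 62.9 CPM. After thinning, 6.10% and 5.04% of NK cells and 2.25% and 1.94% of CD8 T cells had a Cxcl10 UMI. NK cells hold less RNA, with medians of 4812 and 3718 UMIs against 12382 and 10038 in CD8 T cells, and how much of these UMIs is free RNA was not tested. The other T cells, 112 and 107 cells, had 44.7 and 323 CPM, but 1 treated cell held 70.0% of the treated UMIs. Neutrophils, B cells, gamma-delta T cells and conventional CD4 T cells had fewer than 50 cells in at least 1 library and are not compared for the ligands.

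By share of the RNA, phagocytes were the main holders of both ligands. Of all Cxcl9 UMIs in the cells used they held 82.8% (82.4 to 83.1) of 40648 in the control and 76.8% (76.2 to 77.3) of 24098 in the treated library. cDC2 held 6.65% and 9.91%, cDC1 3.28% and 3.30%, mature DCs 1.70% and 2.37%, melanoma cells 0.472% and 0.606%, and ungated cells 3.72% and 6.01%. Of the Cxcl10 UMIs, phagocytes held 71.8% (71.3 to 72.3) of 36651 and 61.7% (61.0 to 62.3) of 23805. Melanoma cells came second, with 15.2% (14.8 to 15.5) and 24.3% (23.7 to 24.8). These shares depend on how many cells of each class the sort let through and on their RNA content, so they do not give the share in the tumour.

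**Figure D2:**
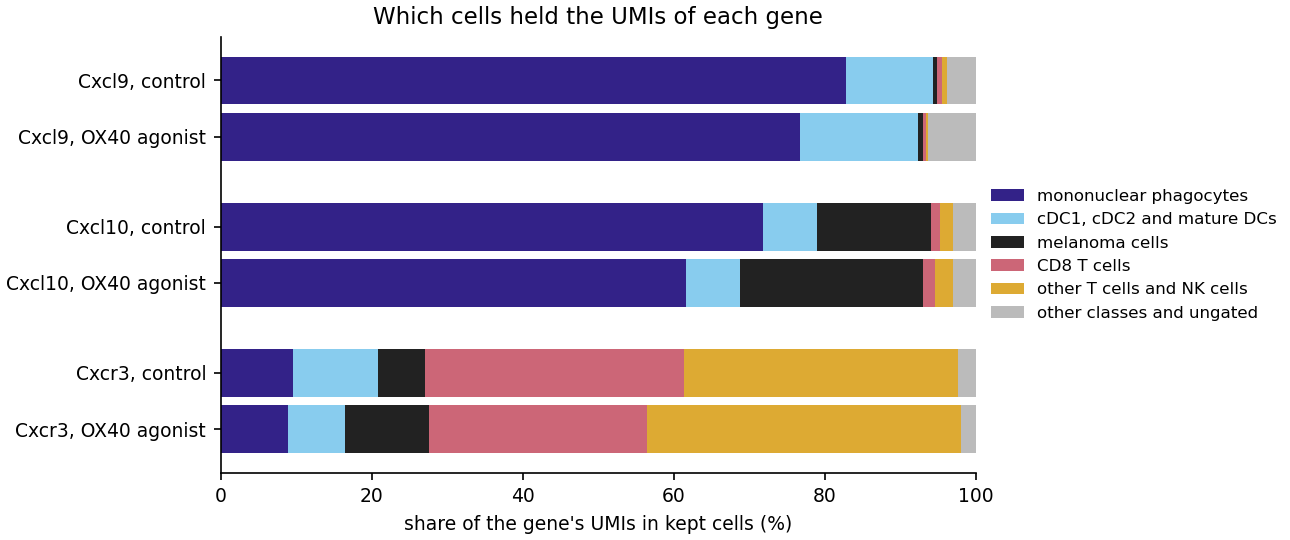
Share in percent of all UMIs of Cxcl9, Cxcl10 and Cxcr3 held by each cell class, 1 bar per gene and library, summing to 100%. Phagocytes hold 82.8% and 76.8% of Cxcl9, melanoma cells 15.2% and 24.3% of Cxcl10, and T cells most of Cxcr3.

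The phagocyte subsets differed in both the level and the size of the difference between libraries. The lowest ratio was in macrophages gated on Fcrls, Folr2 and Gas6, genes common in tissue-resident macrophages. Their Cxcl9 was 826 CPM (798 to 855) in 205 control cells and 157 CPM (149 to 165) in 632 treated cells, a ratio of 0.190. Of 7499 genes in this subset 0.0267% had a lower log2 ratio than Cxcl9. Their Cxcl10 was 823 CPM (795 to 851) and 301 CPM (291 to 313), a ratio of 0.366. Both ligands were among the 4.61% of genes at least 1.5-fold lower. The subset also made up more of the treated library, 9.05% of cells against 3.42%. C1q-high macrophages, the largest subset with 1001 and 942 cells, had 1308 CPM of Cxcl9 (1291 to 1325) and 956 CPM (938 to 973), a ratio of 0.730. Their Cxcl10 was 721 and 488 CPM, a ratio of 0.677. Neither ligand was among the 1.85% of genes past the 1.5-fold limit there.

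Both monocyte subsets of the control library held more Cxcl10 than Cxcl9 UMIs. Classical monocytes, the Ly6c2 and Ccr2 cells that enter from blood, had 1109 CPM of Cxcl9 (1078 to 1141) and 1111 CPM (1078 to 1145), a ratio of 1.00 with intervals that coincide. Their Cxcl10 was the highest of all subsets, at 1542 CPM (1506 to 1579) and 1064 CPM (1032 to 1097). That ratio of 0.690 did not reach the limit that 2.27% of genes passed, but only 0.576% of genes had a lower one. Nonclassical monocytes, which patrol vessels, had 529 and 284 CPM of Cxcl9 and 1319 and 582 CPM of Cxcl10. In them 12.8% of genes passed the limit, both ligands included, and 1 control cell held 34.6% of the Cxcl9 UMIs. After thinning to 1000 UMIs Cxcl9 was at 414 and 293 CPM there, short of the limit. Arg1 or Spp1 macrophages had the lowest control levels, with 334 and 158 CPM of Cxcl9 and 475 and 219 CPM of Cxcl10, and both ligands were among the 3.74% of genes past the limit.

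The phagocyte total mixes these subsets. With their mix held at that of the control library, the treated Cxcl9 level was 741 CPM in place of 591, and the log2 ratio -0.52 in place of -0.84. For Cxcl10 the treated level was 513 CPM in place of 469. Clusters made without the 3 genes were used to compare subsets side by side. In cluster 4, Cxcl9 was 1055 and 233 CPM in Fcrls, Folr2 or Gas6 macrophages and 1589 and 1382 CPM in C1q-high macrophages. In cluster 10 it was 556 and 65.0 CPM in the former and 663 and 617 CPM in the latter. In cluster 9 it was 47.6 and 58.2 CPM in the former, a ratio of 1.22 (0.678 to 2.37) from 14 and 62 UMIs. The latter had 287 and 82.8 CPM there, a ratio of 0.288. In cluster 2, C1q-high macrophages had 527 and 160 CPM of Cxcl9, but 322 and 374 CPM of Cxcl10, a ratio of 1.16 (0.996 to 1.36). Phagocytes outside the named subsets had 243 and 568 CPM of Cxcl10 in that cluster, a ratio of 2.33 (1.81 to 3.02), from 45 and 54 cells, with 55.3% of the treated UMIs in 1 cell. Classical monocytes split by cluster in Cxcl9. They had 1660 and 1784 CPM in cluster 0, 820 and 178 CPM in cluster 2, a ratio of 0.217 (0.157 to 0.293) in 61 and 56 cells, and 93.7 and 52.1 CPM in cluster 8.

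**Figure D3:**
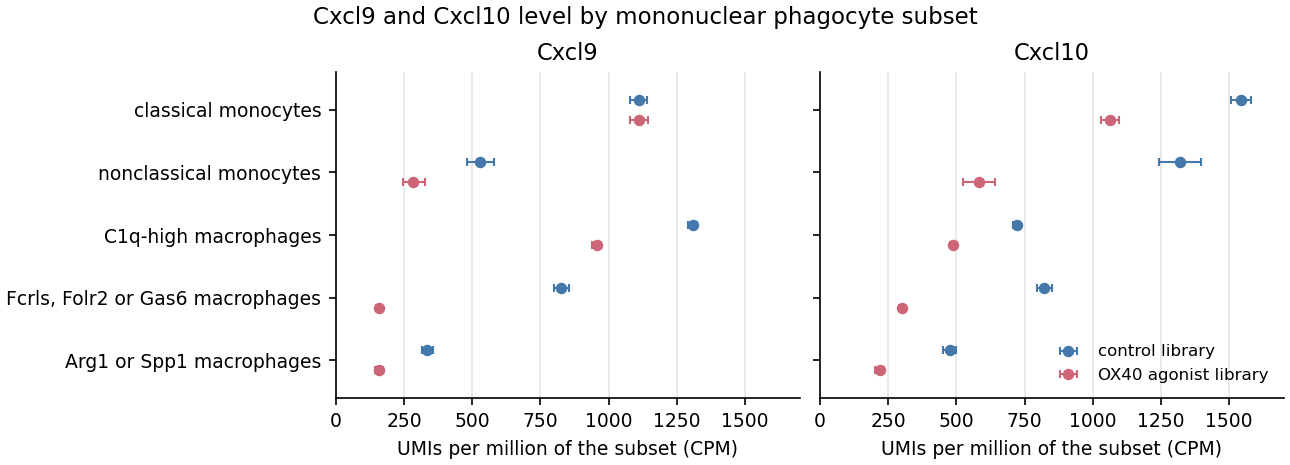
Level of Cxcl9 (left) and Cxcl10 (right) in 5 phagocyte subsets, in CPM of the subset. Points are the 2 libraries and bars are 95% Poisson intervals, counting error only. The libraries lie furthest apart for Cxcl9 in Fcrls, Folr2 or Gas6 macrophages, 826 and 157 CPM, and coincide in classical monocytes, 1109 and 1111 CPM.

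Over the whole phagocyte class, the lower Cxcl9 level went with fewer cells that had a UMI, not with fewer UMIs per such cell. Within some subsets UMIs per such cell were lower too. After thinning to 1000 UMIs, 30.4% (28.6 to 32.3) of 2418 control and 18.6% (17.2 to 20.03) of 2965 treated phagocytes had Cxcl9, with 3.17 and 3.19 UMIs per positive cell. Unthinned, the shares were 52.3% and 30.2%. CD8 T cells, which should lack the gene, gave 1.42% and 0.566% after thinning. For Cxcl10 the phagocyte shares were 23.9% (22.3 to 25.7) and 16.6% (15.3 to 18.0), with 3.81 and 3.29 UMIs per positive cell. In the Fcrls, Folr2 or Gas6 subset the Cxcl9 share was 32.5% and 7.81%, in C1q-high macrophages 43.96% and 31.8%, and in classical monocytes 24.3% and 23.2%. In the same order of subsets, UMIs per positive cell were 2.50 and 2.16, 2.90 and 2.93, and 4.33 and 4.26. With 2000 UMIs per cell those of the Fcrls, Folr2 or Gas6 subset were 3.39 and 2.64, so there they were lower too. The RNA was uneven among cells. The tenth of phagocytes with most Cxcl9 held 62.4% and 82.3% of its UMIs in the class, and for Cxcl10 80.3% and 81.3%.

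Most ligand-positive phagocytes showed 1 ligand at this depth. Both were seen in 9.84% of control and 5.30% of treated phagocytes, Cxcl9 alone in 20.6% and 13.3%, and Cxcl10 alone in 14.1% and 11.3%. Cxcl10 was more frequent where Cxcl9 was present, at 32.4% against 20.3% of cells without Cxcl9 in the control, and 28.5% against 13.9% in the treated library. The balance of the ligands differed among classes in both libraries, but did not separate all of them. There were 7.49 and 6.31 Cxcl9 UMIs per Cxcl10 UMI in cDC1, 2.95 and 2.41 in mature DCs, 1.81 and 1.96 in C1q-high macrophages and 1.22 and 1.78 in cDC2. The mature DC values rest on levels that, as given above, changed with classes from clusters and without the top 1% of cells. Classical monocytes had 0.719 and 1.04, Arg1 or Spp1 macrophages 0.704 and 0.722, and nonclassical monocytes 0.401 and 0.488. In Fcrls, Folr2 or Gas6 macrophages the balance went from 1.00 to 0.520, the latter close to that of nonclassical monocytes.

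**Figure D4:**
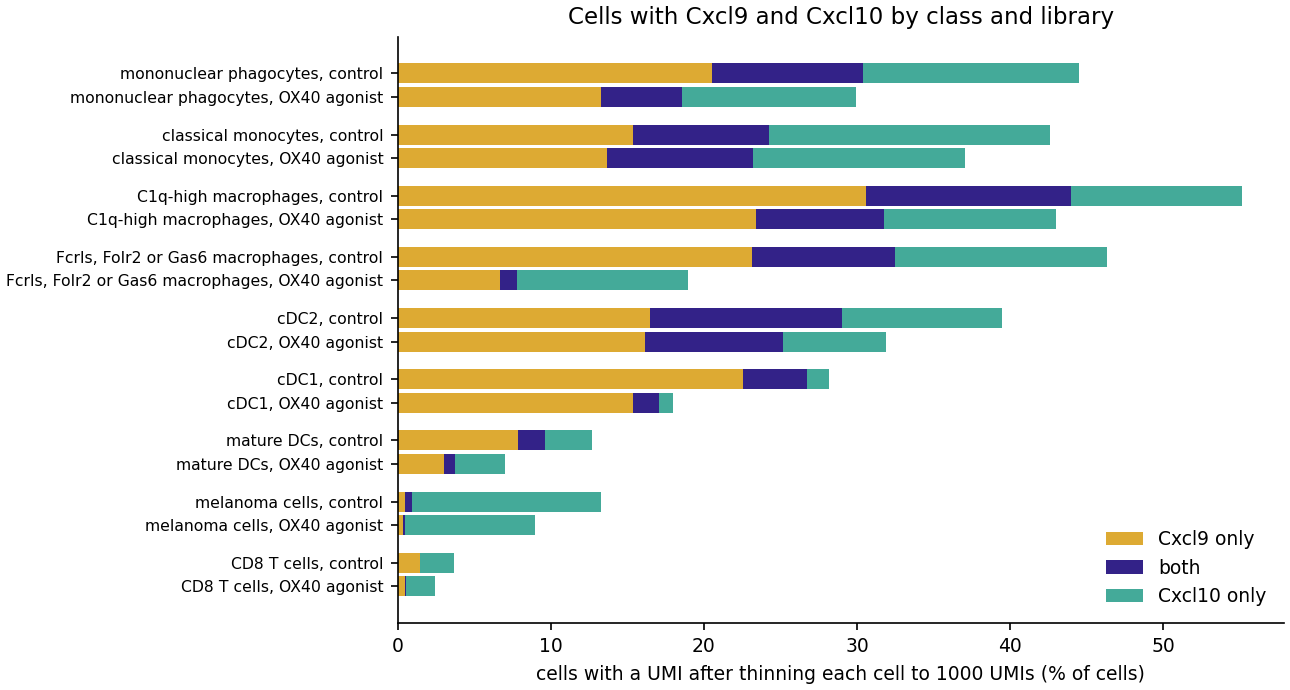
Share in percent of cells, each thinned to 1000 UMIs, with UMIs of both ligands, of Cxcl9 alone or of Cxcl10 alone, by class or subset and library. In phagocytes both were seen in 9.84% of control and 5.30% of treated cells, and in melanoma cells almost all positive cells had Cxcl10 alone.

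RNA of T cells in phagocyte droplets differed between the libraries in the same direction as the ligands. The summed level of Cd3d, Cd3e, Cd3g, Trac, Cd2 and Lck in phagocytes was 241 CPM in the control and 125 CPM in the treated library, with all 6 lower and none at 0. In CD8 T cells it was 5177 and 5207 CPM. In Fcrls, Folr2 or Gas6 macrophages the sum was 338 and 123 CPM, and in C1q-high macrophages 300 and 135 CPM. The 6 melanoma markers were also all lower in Fcrls, Folr2 or Gas6 macrophages, at 194 and 122 CPM in sum, whereas in all phagocytes they summed to 151 and 177 CPM. Their part in the ligand values was not tested. Droplets that also passed the T or NK gate were 80 of 2453 control and 57 of 3008 treated phagocytes. Without them the log2 ratio in phagocytes was -0.86 for Cxcl9 and -0.85 for Cxcl10, against -0.84 and -0.82 with them. In cDC1 the 14 phagocyte markers summed to 673 and 222 CPM, and in cDC2 to 1080 and 803 CPM. Their part in the DC values was not tested.

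Cxcr3, the receptor, was a low and scattered transcript, with 1166 control and 1148 treated UMIs, or 11.7 and 11.4 CPM over all cells used. It was highest in CD4 T cells. Regulatory T cells had 139 CPM (122 to 157) and 132 CPM (118 to 147), a ratio of 0.950 with overlapping intervals. Conventional CD4 T cells had 146 CPM (104 to 199) and 159 CPM (121 to 204), from only 29 and 63 cells. These intervals overlap those of regulatory T cells, so the 2 cannot be ordered. The other T cells had 84.7 and 95.2 CPM. Gamma-delta T cells had 82.8 and 89.7 CPM, from 27 and 25 cells.

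Below them, NK cells had 21.7 CPM (14.7 to 31.0) and 21.9 CPM (14.0 to 32.5), and CD8 T cells 17.2 CPM (15.6 to 19.0) and 22.0 CPM (19.7 to 24.5). The CD8 ratio was 1.28 (1.10 to 1.48). After thinning to 1000 UMIs, however, 4.06% (3.13 to 5.16) of 1553 control and 3.48% (2.53 to 4.65) of 1237 treated CD8 T cells had a Cxcr3 UMI. With 2000 UMIs per cell the shares were 6.09% (4.95 to 7.40) and 8.05% (6.59 to 9.71). Each thinning is a single random draw, and the intervals of the libraries overlap at both depths. The draw to 1000 UMIs changed the sign, as 1 of 13 alternatives, and no direction is given for CD8 T cells. Regulatory T cells had a Cxcr3 UMI in 12.6% of thinned cells in both libraries, and NK cells in 2.03% and 2.33%. Phagocytes, at 3.55 and 3.26 CPM, gave 0.414% and 0.236%, with unthinned medians of 9110 and 7693 UMIs against 5122 and 4104 in regulatory T cells.

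CD8 T cells differed in Cxcr3 by state. Tcf7-positive cells, which carry the transcription factor of stem-like T cells and no Havcr2 (Tim-3) UMI, had 94.2 CPM (68.7 to 126) in 75 control and 64.3 CPM (38.7 to 100.4) in 50 treated cells. CD8 T cells outside the named subsets had 69.9 and 63.5 CPM, Tim-3-positive cells, a state of exhaustion, 15.8 and 18.4 CPM, and cycling cells 12.4 and 17.2 CPM. Cells high in granzymes D to G had 1.21 and 1.63 CPM, from 3 and 2 UMIs. By CPM the order of the subsets held in both libraries, and the intervals of the 2 highest overlap, as do those of Tim-3-positive and cycling cells. As the subsets differ in depth, UMIs per cell were compared too, with 0.60 in Tcf7-positive, 0.458 in the unnamed, 0.208 in Tim-3-positive, 0.231 in cycling and 0.0242 in granzyme D to G cells of the control. In the treated library they were 0.38, 0.406, 0.195, 0.266 and 0.0339 in the same order of subsets, so the 2 highest changed places. With 1 UMI of Tcf7 or Havcr2 deciding a gate, shallow cells can be put in the wrong subset.

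Among cDC1, cDC2 and mature DCs, only cDC1 carried much of the receptor. Its level was 73.5 CPM (60.8 to 87.98) in the control and 41.5 CPM (32.5 to 52.2) in the treated library, from 118 and 73 UMIs. All 3 genes were thus at least 1.5-fold lower in cDC1, where 10.9% of all genes were. A Cxcr3 UMI was present in 47.9% and 32.5% of unthinned cDC1. With 2000 UMIs per cell the shares were 14.1% (6.97 to 24.4) and 3.42% (0.939 to 8.52). At 1000 UMIs they rested on 1 of 71 and 5 of 117 cells, too few to order the libraries. Plasmacytoid DCs had 44.8 and 46.6 CPM, from 7 UMIs in 17 cells and 13 UMIs in 44 cells. The other DCs were lower, with 4.10 and 2.88 CPM in cDC2 and 0.892 and 2.01 CPM in mature DCs, from 2 and 7 UMIs. T cell markers in cDC1 summed to 23.0 and 78.5 CPM. Of all Cxcr3 UMIs, CD8 T cells held 34.4% and 28.9%, regulatory T cells 21.7% and 27.4%, and cDC1 10.1% and 6.36%. Phagocytes held 9.61% and 8.89% and melanoma cells 6.2% and 11.1%, both more than cDC1 in the treated library. The melanoma level was low, at 2.27 and 3.20 CPM, a ratio of 1.41 (1.05 to 1.91).

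**Figure D5:**
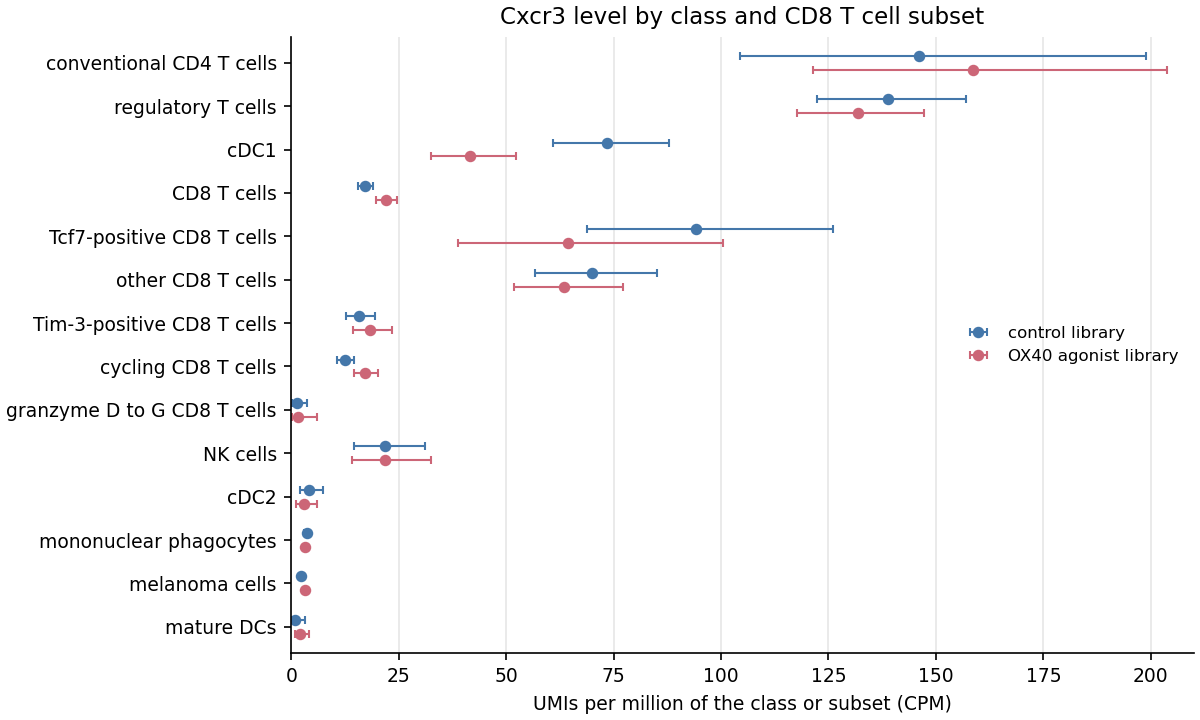
Level of Cxcr3 by cell class and by CD8 T cell subset, in CPM of the class or subset. Points are the 2 libraries and bars are 95% Poisson intervals, counting error only. Regulatory T cells are at 139 and 132 CPM, cDC1 at 73.5 and 41.5 CPM and Tcf7-positive CD8 T cells at 94.2 and 64.3 CPM.

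Genes of the interferon-gamma pathway were lower in treated phagocytes together with the ligands. All 9 of the list were lower, against 46.7% of all genes in the class. They include Ifng itself, whose level in phagocyte droplets is given below beside the T cell markers. Of the 9, 7 had an interval of the ratio below 1, against 21.8%. The median log2 ratio was -0.48 against 0.01 over all 7134 genes. Irf1, a transcription factor induced by interferon-gamma, was at 183 and 124 CPM. Socs1, the feedback inhibitor, was at 48.3 and 31.9 CPM. The receptor chains Ifngr1 and Ifngr2 were closer together, at 141 and 129 CPM and at 97.4 and 96.4 CPM. In Fcrls, Folr2 or Gas6 macrophages 7 of 9 were lower, against 52.8% of all genes, and 6 had an interval below 1, against 15.3%. Socs1 was at 44.2 and 14.7 CPM there. Classical monocytes, with a Cxcl9 ratio of 1.00, had all 8 genes used lower, 4 with an interval below 1. In nonclassical monocytes, where both ligands were at least 1.5-fold lower, 4 of 8 were lower, 2 with an interval below 1. C1q-high macrophages had 8 of 9 lower, and Arg1 or Spp1 macrophages 8 of 8. Shares over all genes were not counted for these subsets. In melanoma cells 4 of the 5 genes above 10 CPM were lower, against 39.2% of all genes, and 3 had an interval below 1, against 17.9%. The fifth was higher with an interval above 1, as were 31.1% of all genes there. Irf1 was at 59.0 and 25.4 CPM there. The T cell markers in melanoma droplets were also lower there, at 58.7 and 21.6 CPM in all, and their part in these values was not tested.

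The level of Ifng within a class differed little in the main producers. CD8 T cells had 570 and 538 CPM and NK cells 207 and 180 CPM. CD8 T cells made up 25.9% of control and 17.7% of treated cells, and NK cells 4.11% and 3.69%. A like level in CPM is therefore not a like total per library. In regulatory T cells Ifng was 34.6 and 93.0 CPM. Ifng in phagocyte droplets, where T cell markers were lower as well, was 11 and 3.1 CPM. Of the type I interferon list 6 of 8 genes were lower in phagocytes, all 6 with an interval below 1, and the median log2 ratio was -0.17, with Ifnb1 at 17.4 and 12.1 CPM. Of the TNF and NF-kB list 6 of 8 were lower, 4 with an interval below 1, and the median of -0.10 is small. Tnf, at 131 and 146 CPM, was on the other side. The shares over all genes are the 46.7% and 21.8% given above.

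Other ligands behaved differently from one another. Pf4 (CXCL4), a platelet chemokine that also binds CXCR3, was higher in treated phagocytes, at 934 and 1597 CPM. In T cells the gap between libraries was smaller without mixed droplets. Its levels were 7.77 and 24.1 CPM in CD8 and 20.3 and 124 CPM in regulatory T cells, and without mixed droplets 5.89 and 7.38 CPM and 6.49 and 16.2 CPM. The list of other CXCR3 ligands and ligand processing holds 3 genes, and only 2 of them are in the deposited tables. Cxcl11 was not analysed here. Of the T cell chemokines, Ccl4 was at 1200.1 and 988 CPM, Ccl5 at 388 and 303 CPM, Cxcl16 at 357 and 321 CPM and Ccl3 at 349 and 360 CPM in phagocytes, all nearer to a ratio of 1 than Cxcl9 or Cxcl10. In CD8 T cells 5 of the 6 listed regulators of Cxcr3 were lower, against 60.8% of all genes there, and 2 had an interval below 1, against 19.9%. Their median log2 ratio was -0.06 against -0.03 over all genes. Tbx21 was at 36.8 and 35.7 CPM, Eomes at 50 and 49.6 CPM, and Il12rb2 at 30.4 and 24.3 CPM. Stat4, which relays interleukin-12, was the exception at 149 and 156 CPM.

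Across 9 classes and both libraries, 18 points in all, the genes most like Cxcl9 in log2 CPM included Ly86, Csf2ra, Spi1 and Pld4, with Pearson r from 0.974 to 0.961 among 4878 genes. For Cxcl10 they were Irf2bp2, Ifit2, Bach1, Neat1 and Tiparp, with r from 0.90 to 0.852. For Cxcr3 they were Lrba, Asxl2, Gna15, Trp53i11 and Pdlim2, with r from 0.902 to 0.868. The points share 2 libraries and pair each class with itself, so these values describe likeness between cell classes.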

How the data were processed

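The authors deposited UMI counts per gene and barcode for 2 libraries, as whole numbers without normalization. They were made with Cell Ranger 3.1.0, per the file headers, on mm10, per the submitters' processing notes. Positions came from GENCODE M21 on the same build. Barcodes needed 500 UMIs, 200 genes and no more than 10% mitochondrial UMIs, and the highest Scrublet-type doublet scores (365 control and 514 treated barcodes) were removed. Every cell took the class whose marker level passed a gate and was highest against that gate's typical level. Gates were set in 3 versions, each revision made with levels of the 3 genes in view, and the last is used. The members and lists were chosen with earlier results of these data known. Counts were summed per class into CPM, and log2 ratios of treated over control were taken after adding 10 CPM. CPM and ratios carry exact Poisson and conditional intervals, and shares exact Clopper-Pearson intervals. Genes at 10 CPM or more in either library form the background of a class. Named are the 3 genes, the pathway lists, the class markers and, per member, the 5 genes of highest Pearson r among those reaching 50 CPM in classes of at least 50 cells per library. Alternatives were Leiden clusters, other filters, a 1 CPM pseudocount, cell means, thinning, and leaving out mixed droplets or the top 1% of cells. The first 2 gate versions were added after seeing the data. Tools were numpy 2.4.6, scipy 1.17.1, scikit-learn 1.9.0 and leidenalg 0.10.2. Only the ratio and its interval were tried on simulated data. Those were independent Poisson counts per class, without the unevenness among cells, so they do not show how the intervals behave under it. Values of some genes the naming rule or lists hold are not reported here.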

Additional observations from a re-analysis of the deposited data

How the results depend on the processing

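No paired analysis was possible because each group is 1 library and no result comes from a test. Over 30 results and 363 alternative values, 267 stayed within the counting interval of the reported value. The sign changed in 25 values of 10 results. Of 19 results at least 1.5-fold lower, 9 fell short of that under at least 1 alternative. Results short of the limit could also pass it, and how many did was not counted. Cxcl10 in melanoma cells passed it after thinning, at 222 and 127 CPM. In cDC2 and C1q-high macrophages the lowest log2 ratios of Cxcl10, -0.95 and -0.64, were past it too, against -0.58 and -0.55 as reported. The log2 ratio of Cxcl9 in phagocytes, -0.84, was -0.80 with clusters, -0.81 with 20% and -0.91 with 5% mitochondrial UMIs allowed, -0.69 as a mean over cells, -0.52 with the control subset mix, -0.69 after thinning and -0.96 without the top 1% of cells. That of Cxcl10 in phagocytes, -0.82, was -0.78, -0.74, -0.69, -0.73 and -0.88 with clusters, the cell mean, the control mix, thinning and without the top 1%, and -0.85 without mixed droplets. Cxcl10 in melanoma cells, -0.25, was -0.18 with 5% mitochondrial UMIs, -0.38 as a cell mean, -0.36 with no doublets removed, -0.75 after thinning and -0.51 without the top 1%. Cxcl9 in mature DCs, -0.87, was -0.60 as a cell mean, -1.08 with the second gates and -1.07 without the top 1%. Cxcr3 in CD8 T cells, 0.23, was -0.25 after thinning. Among results whose interval excludes a ratio of 1, signs also changed for Cxcl10 with clusters in cDC1 (0.32), mature DCs (0.23) and regulatory T cells (0.11), for Cxcr3 in cDC1 after thinning (1.13), and for Cxcl10 in CD8 T cells as a cell mean (-0.053) and after thinning (-0.15). Where the libraries hardly differed, the sign changed in 7 alternatives for Cxcl9 in classical monocytes (-0.09 to 0.01), 4 for Cxcl9 in cDC2 (-0.22 to 0.14), 6 for Cxcr3 in NK cells (-0.18 to 0.29) and 1 for Cxcr3 in regulatory T cells (0.17). The cause was not tested. After thinning to 1000 UMIs, 2.34% of 5866 control and 2.05% of 6872 treated cells held a Cxcr3 UMI, so its values at that depth rest on few cells.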
